A study of Klebsormidium nitens with 4 samples.

Results

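Of the 17290 genes of *Klebsormidium nitens* in the table, 57 were strongly induced by high light and still reached only 5 to under 50 FPKM, the number of fragments scaled to the exon length of the gene and to the mapped reads of the library. They were chosen by the ratio r, which is the mean FPKM in high light plus 1, divided by the mean FPKM in low light plus 1. A member has an r of at least 4, a mean of 5 to under 50 FPKM in high light, both high light values above both low light values, and a value above 0 in at least 1 low light library. Both high light values lay above both low light values in 18.5% of all genes and in 27.1% of the genes above 0 in any library, and in all members by the rule. None of the 57 genes is named in the text of the study. *K. nitens* NIES-2285 belongs to the charophytes, the green algae most closely related to land plants, and was grown in aerated liquid culture with 1% CO2 at 20 degrees C. The high light cultures received 1500 µE m-2 s-1 for 3 h, whereas the low light cultures stayed at 50 µE m-2 s-1. Both conditions used the same strain, medium and temperature, with 2 independent cultures each. A culture is a bulk sample, so more expressing cells and more RNA per cell cannot be told apart.

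Light beyond what photosynthesis can use produces reactive oxygen species in the chloroplast. In plants and algae, signals from the stressed chloroplast then change the transcription of nuclear genes, among them genes for antioxidants, protein repair and the chloroplast transcription machinery. Many regulators and transporters act at a low transcript level, so a large relative change need not give an abundant transcript. The roles given below are those of the best Arabidopsis hit of each gene, which rests on sequence similarity and was not tested in *K. nitens*.

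The FPKM of all genes summed to 620285 and 620013 in high light replicates 1 and 2, against 660467 and 657079 in low light replicates 1 and 2. For genes that no library lists at 0, the median was 14.4 and 14.8 FPKM in high light, against 17.2 and 16.6 FPKM in low light. FPKM hold no read counts, and the depth of each gene is therefore unknown. Because the rule used high and low light values of all libraries, every difference between the conditions below is a description and no test of it is given. The smallest two-sided p that an exact permutation test can give for 1 gene with 2 libraries against 2 is 0.333.

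The members were rare in low light and of middle abundance in high light. Their mean FPKM had a median of 20.9 in high light, with a range of 5.15 to 47.8, against a median of 2.73 and a range of 0.0565 to 9.31 in low light. Among the 11820 genes above 0 in any library, the median was 12.0 FPKM in high light and 14.3 in low light. In high light 45 of the 57 members lay above that median, whereas in low light all 57 lay below it. The limits of the rule on r and on high light FPKM keep every low light mean under 14.3 FPKM. The low light count thus follows from the rule. The term low abundance describes their low light level as the rule set it. In high light their median stood above 64.3% of the detected genes, and the limits of 5 and 50 FPKM shaped that position too. In all, 9 members had a mean of 5 to 10 FPKM in high light, 17 had 10 to 20, 18 had 20 to 30, 8 had 30 to 40 and 5 had 40 to 50. In low light 13 members had a mean under 1 FPKM, 18 had 1 to 3 and 26 had 3 to 10. The summed FPKM of the members was 1176 and 1352 in high light, or 0.190% and 0.218% of each library, against 204 and 144 in low light, or 0.0308% and 0.0220%.

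**Figure D1:**
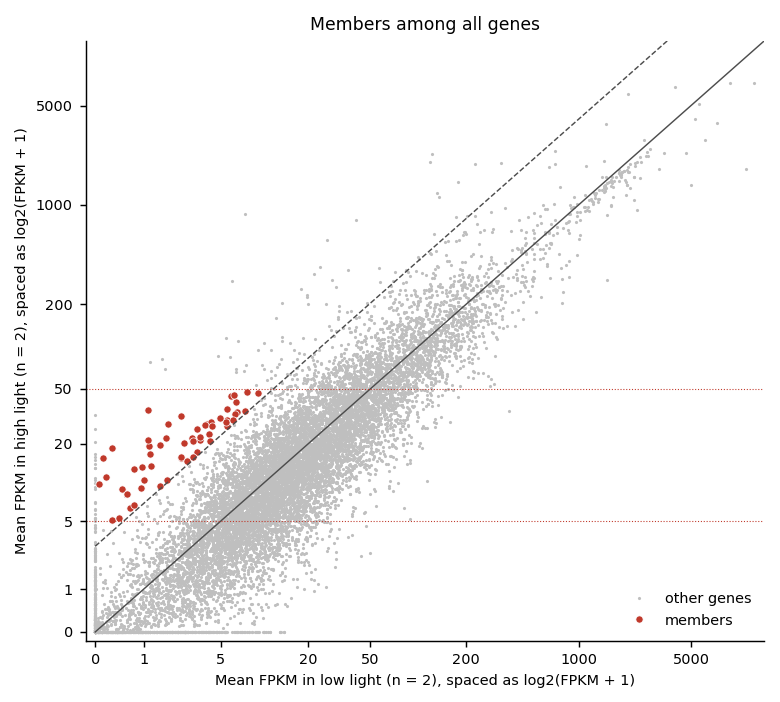
Mean FPKM of every gene in high light (vertical) and low light (horizontal), 2 libraries each, on axes spaced as log2(FPKM + 1). Red points are the 57 members, grey points the other genes, the solid line marks equal means, the dashed line an r of 4 and the dotted lines 5 and 50 FPKM, and the members fill the band between the dotted lines above the dashed line, at low light means of at most 9.31 FPKM.

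The ratio r ran from 4.17 to 17.2 with a median of 5.50, and it lay from 4 to under 5 in 23 members, from 5 to under 6 in 14, from 6 to under 8 in 7, from 8 to under 10 in 6 and at 10 or more in 7. Over the 6230 genes with 5 to under 50 FPKM in high light, the median of r was 0.894 and the upper quartile 1.26. The members are thus 0.915% of the genes at that high light level.

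The supplementary gene table of the study gives best hits for the genes it lists as changed. It has an entry for 28 of the 57 members, of which 12 have a hit in both Arabidopsis and Chlamydomonas, 4 in Arabidopsis only, 1 in Chlamydomonas only and 11 in neither. The other 29 members have no entry there. Entries exist only for genes that the study called on these same libraries, so members with a hit were in part chosen on these values.

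The gene nearest to a chloroplast regulator was kfl00791_0030, with the best hit AT5G24120, the sigma factor SIG5 that directs the plastid RNA polymerase to chosen chloroplast promoters in Arabidopsis. It had 42.5 and 47.6 FPKM in high light, against 6.35 and 6.26 FPKM in low light. The replicates of each condition lay close together, and r was 6.31. A second chloroplast hit was kfl00144_0250, similar to AT4G00370 (ANTR2), a transporter of the chloroplast envelope that carries ascorbate in Arabidopsis. It had 22.5 and 21.5 FPKM in high light, against 1.77 and 1.75 FPKM in low light, and its r of 8.34 was the largest of the chloroplast hits. The last was kfl00172_0090, similar to AT4G28080 (REC2), a protein of a tetratricopeptide repeat family that influences how much of the cell the chloroplasts fill. It had 28.4 and 29.5 FPKM in high light, against 4.64 and 3.83 FPKM in low light, with an r of 5.72. In these 3 genes any high light library paired with any low light library gave a ratio of at least 5.21.

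A further group of 5 members had hits to oxidases, a DJ-1 family protein, a selenium-binding protein and an amide-cleaving enzyme family. These are not all redox enzymes. Their r spread little, between 4.76 and 5.80. The gene kfl00062_0200 is similar to AT5G21105, an ascorbate oxidase, a secreted copper enzyme that oxidizes ascorbate outside the cell. It had 41.4 and 39.4 FPKM in high light, against 7.49 and 5.54 FPKM in low light. A flavin-dependent oxidase of the berberine bridge enzyme family, AT1G26380, was the best hit of kfl00004_0500, which had 25.9 and 29.8 FPKM in high light, against 5.00 and 2.95 FPKM in low light. This gene had the highest r of the group and the widest gap between the low light replicates.

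The best hit of kfl00052_0190 was AT1G53280 (DJ-1B), of the DJ-1 family that is known for protection of cells from oxidative stress and reactive carbonyls. It had 27.6 and 32.6 FPKM in high light, against 5.01 and 6.06 FPKM in low light. For kfl00200_0140, similar to AT4G14040 (selenium-binding protein SBP2), the values were 22.5 and 24.6 FPKM in high light, against 4.15 and 4.07 FPKM in low light. The low light replicates of kfl00200_0140 were nearly equal. A gene of the acetamidase and formamidase family, which cleave small amides, was the hit of kfl00018_0480 (AT4G37550), and it had 20.0 and 23.9 FPKM in high light, against 2.99 and 3.00 FPKM in low light.

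Lipid-related hits held 2 of the 7 ratios of at least 10. The gene kfl00146_0110, similar to AT3G22142 of the lipid-transfer protein and seed storage albumin family, had 22.0 and 20.8 FPKM in high light, against 1.04 and 1.23 FPKM in low light, with an r of 10.5. The gene kfl00097_0070, similar to AT3G63200, a patatin-like acyl hydrolase that releases fatty acids from membrane lipids, had 27.4 and 28.8 FPKM in high light, against 1.77 and 1.88 FPKM in low light, with an r of 10.3. Neither has a Chlamydomonas hit in the table. At a higher level in both conditions was kfl00029_0410, similar to AT3G06060 (TSC10A), the 3-ketodihydrosphinganine reductase of sphingolipid synthesis. It had 41.6 and 54.0 FPKM in high light, against 8.50 and 7.10 FPKM in low light, with an r of 5.55.

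Kinase hits were a receptor kinase and a kinase with a U-box, the domain of a class of ubiquitin ligases. The gene kfl00001_0820, similar to the leucine-rich repeat receptor kinase AT3G17840 (RLK902), had 36.7 and 34.9 FPKM in high light, against 6.99 and 4.21 FPKM in low light, with an r of 5.57. The gene kfl00204_0070, similar to the U-box kinase AT2G19410, had 20.1 and 21.8 FPKM in high light, against 3.76 and 4.56 FPKM in low light, with an r of 4.25. That is the lowest r among the members with an Arabidopsis hit.

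The remaining hits belong to RNA handling, nuclear transport and membrane trafficking. The gene kfl00083_0290, similar to the DEAD-box RNA helicase AT4G16630, had 30.4 and 36.1 FPKM in high light, against 6.47 and 6.37 FPKM in low light, with an r of 4.62. In the reference gene table it overlaps its neighbour kfl00083_0300 by 19 bases, and that neighbour had an r of 0.768. The gene kfl01055_0020, similar to AT1G10390 (the nuclear pore protein NUP98A), had 23.6 and 30.4 FPKM in high light, against 4.70 and 3.89 FPKM in low light, with an r of 5.29. The gene kfl00756_0040, similar to AT1G34220, an IST1-like regulator of the Vps4 ATPase in multivesicular body sorting, had 46.3 and 47.4 FPKM in high light, against 10.3 and 8.32 FPKM in low light, with an r of 4.64. It had the highest low light mean of all members, at 9.31 FPKM.

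**Figure D2:**
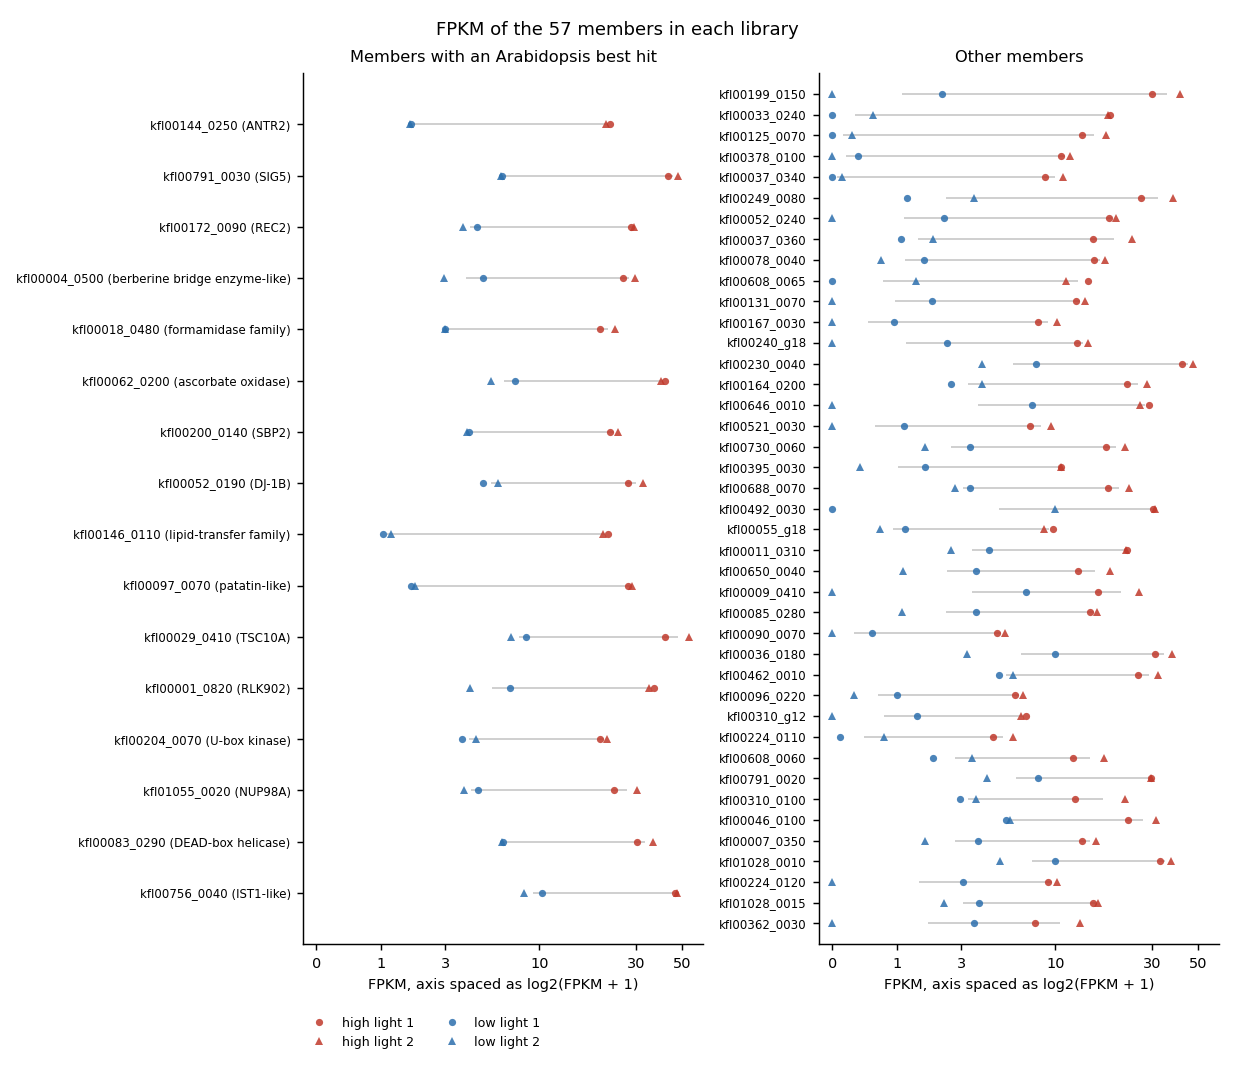
FPKM of each member in high light (red) and low light (blue), with a circle for replicate 1, a triangle for replicate 2 and a grey line between the condition means, on an axis spaced as log2(FPKM + 1). The 16 members with an Arabidopsis hit are on the left, grouped by role, and the other 41 on the right, ordered by r, and low light values of 0 occur only on the right, in 18 members.

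Of the 7 members with an r of at least 10, 5 (71.4%) have no known Arabidopsis hit, much as among all members (41 of 57, 71.9%). The largest r, 17.2, belonged to kfl00199_0150, which has no entry in the supplementary table, with 30.1 and 40.9 FPKM in high light, against 2.24 and 0 FPKM in low light. Next were kfl00033_0240, with 18.7 and 18.4 FPKM in high light, against 0 and 0.552 FPKM in low light, and kfl00125_0070, the gene with a hit in Chlamydomonas only, with 13.5 and 17.9 FPKM in high light, against 0 and 0.237 FPKM in low light. Their r was 15.3 and 14.9. The low light libraries gave each of these genes a value of 0 once, so r leans on the 1 that is added to both means.

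The genes kfl00378_0100 and kfl00037_0340, which have an entry without a hit, had an r of 10.5 and 10.3. In high light kfl00378_0100 had 10.6 and 11.8 FPKM, against 0.323 and 0 FPKM in low light, and kfl00037_0340 had 8.86 and 10.9 FPKM, against 0 and 0.113 FPKM in low light. The model of kfl00378_0100 spans only 93 bases, from base 46686 to base 46778 of scaffold kfl00378 in assembly ASM70883v1, and all of it lies within kfl00378_0110, which had 71.8 and 76.9 FPKM in high light, against 62.2 and 51.6 FPKM in low light. Whether reads were split between these overlapping genes was not tested, and the value of kfl00378_0100 is uncertain for that reason.

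Hits are not known for kfl00249_0080 and kfl00131_0070, which have no entry, while kfl00078_0040 has an entry without a hit. The gene kfl00249_0080 had 26.6 and 37.8 FPKM in high light, against 1.24 and 3.56 FPKM in low light, with an r of 9.75. For kfl00078_0040 the values were 15.7 and 17.7 FPKM in high light, against 1.67 and 0.693 FPKM in low light, with an r of 8.11. In kfl00131_0070 they were 12.7 and 14.0 FPKM in high light, against 1.91 and 0 FPKM in low light, with an r of 7.36. The high light libraries exceeded both low light libraries severalfold in these genes, while the low light replicates differed from each other by more than 2 times.

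The 41 members without a known Arabidopsis hit, 29 of them with no entry, had a median of 16.0 FPKM in high light and 1.79 FPKM in low light, and the 16 with a hit had 28.5 and 4.27 FPKM. The medians of r were close, 5.33 and 5.56. The members without an Arabidopsis hit spanned a median of 3392 bases (38 with a known span) and those with a hit 6737 bases. As the hits come from a list of called genes, these differences describe the members and carry no test.

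As a ratio, replicates were closer in high light than in low light, whereas in FPKM the SD of the 2 replicates was larger in high light in 38 of the 57 members, with a median of 1.51 in high light and 0.990 in low light. The higher of the high light replicates was at most 1.75 times the lower, with a median of 1.13, and in 53 of the 57 members it was within 1.5 times. Replicate 2 was the higher one in 47 members (82.5%), against 79.5% of the 78 genes that met the same ratio and order at 50 FPKM or more in high light and 58.7% of all genes with 5 to under 50 FPKM in high light. By ratio, the widest gaps were in kfl00310_0100, with 12.6 and 22.1 FPKM in high light, kfl00362_0030, with 7.85 and 13.4, kfl00009_0410, with 16.4 and 26.0, kfl00037_0360, with 15.5 and 23.9, and kfl00650_0040, with 13.0 and 18.7.

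In low light 18 members were at 0 in one library, 5 of them in replicate 1 and 13 in replicate 2, and their other low light value ran from 0.113 to 9.94 FPKM with a median of 1.69. By difference in FPKM, the widest gap was in kfl00492_0030, with 30.4 and 31.2 FPKM in high light, against 0 and 9.94 FPKM in low light. It was followed by kfl00646_0010, with 28.9 and 26.4 FPKM in high light, against 7.54 and 0 FPKM in low light, and by kfl00009_0410, with 6.99 and 0 FPKM in low light. Then came kfl00036_0180, with 31.2 and 37.5 FPKM in high light, against 9.99 and 3.26 FPKM in low light, and kfl01028_0010, with 32.8 and 37.0 FPKM in high light, against 9.99 and 5.04 FPKM in low light. In the first 3 of these genes one low light library listed 0 and the other 6.99 to 9.94 FPKM, and in the last 2 both libraries were above 0. Of the 39 members above 0 in both low light libraries, 18 had replicates within 1.5 times of each other and 9 had replicates more than 2 times apart. Low light replicate 1 was the higher one in 39 of the 57 members. The matching share over all genes was not computed, so neither this count nor the split of the zeros can be called particular to the members.

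**Figure D3:**
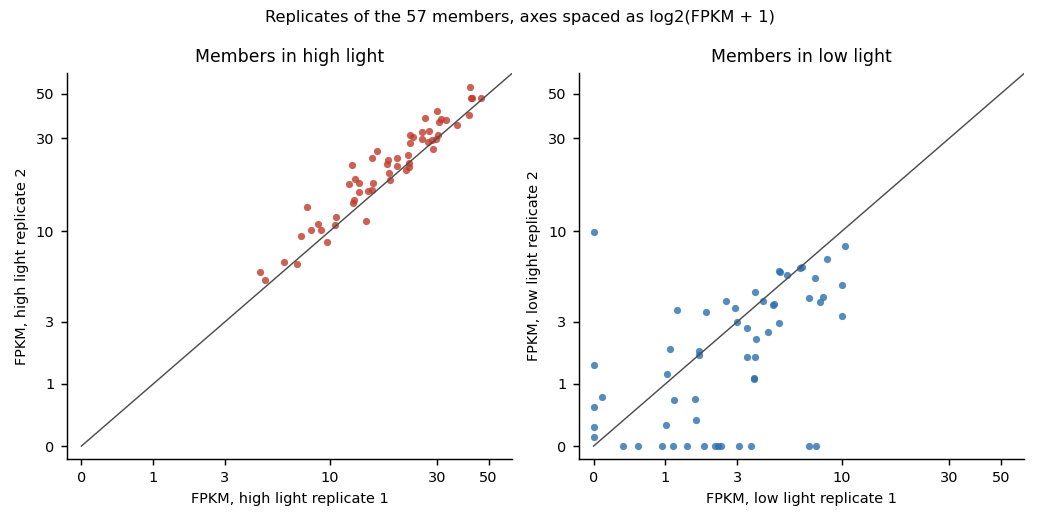
FPKM of the 57 members in replicate 2 against replicate 1, for high light (left) and low light (right), on axes spaced as log2(FPKM + 1) with a line of equality. The high light points follow the line, within 1.75 times, while 18 low light points lie on an axis at 0 FPKM.

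Each member has 4 pairings of a high light library with a low light library. The lowest of the 4 ratios was at least 2 in 56 members, at least 3 in 49 and at least 4 in 35, which were 15 of the 16 members with an Arabidopsis hit and 20 of the other 41. As hits are listed only for genes called on these libraries, that split was in part set by the choice of genes. The lowest ratio of all, 1.94, was that of kfl00362_0030, which had 3.57 and 0 FPKM in low light. For kfl00144_0250 the lowest ratio was 8.13, for kfl00146_0110 it was 9.75 and for kfl00097_0070 9.87, close to their r.

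**Figure D4:**
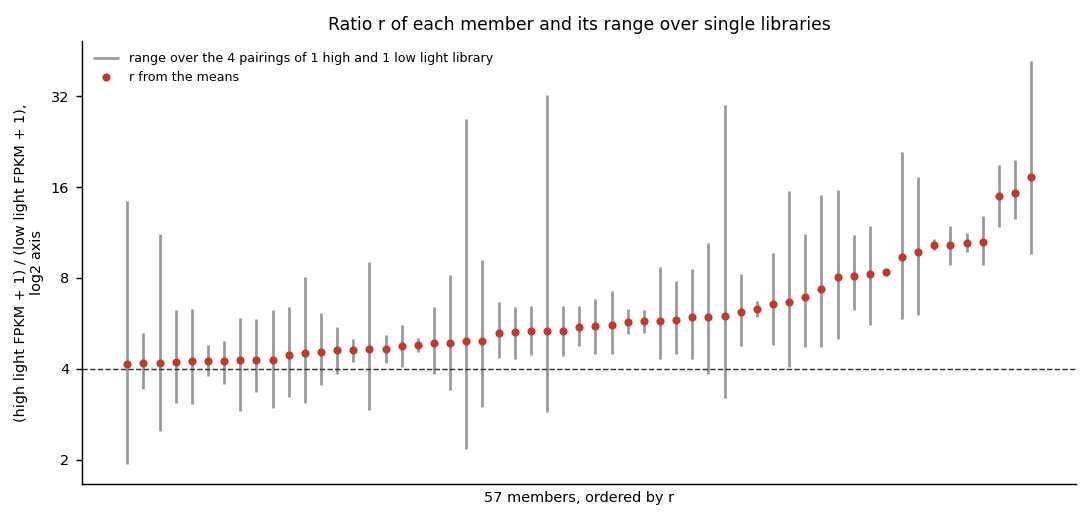
Ratio r of each of the 57 members from the condition means (red) and the range of the ratio over the 4 pairings of a high light with a low light library (grey), ordered by r, on a log2 axis with a dashed line at 4. The grey range stays at or above 4 in 35 members, and the widest ranges belong to members with a low light library at 0.

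In a limma fit over all 17290 genes on quantile normalized log2(FPKM + 1), 691 genes (4.00%) were activated in high light, counting genes at or above 1 on the log2 scale whose Benjamini-Hochberg adjusted p was under 0.05, and 607 were repressed. Without normalization these counts were 515 and 876, and the activated share of the calls was 37.0% in place of 53.2%, and the median log2 change among genes that no library lists at 0 was then -0.22, against 0.0035 after quantile normalization. Of the members 33 of 57 were activated. The rule chose the members on the same contrast, so nothing is read from that count against the background of 4.00%, or of 5.46% among genes with 5 to under 50 FPKM in high light. The activated members were all 16 with an Arabidopsis hit and 17 of the other 41. Hits are listed only for genes that the study called on these same libraries. The members with an entry but no Arabidopsis hit were all activated too, so this split is no result about the hits. Of the 18 members with a low light library at 0, 6 were activated, and of the 18 with low light replicates within 1.5 times, 17 were. On this scale the log2 fold change of the members ran from 2.34 to 4.54, with a median of 2.82, and kfl00199_0150, which had the largest value, was not among the activated ones. The count fell to 4 without high light replicate 1, 4 without high light replicate 2, 10 without low light replicate 1 and 7 without low light replicate 2, while it was 54 when genes under a mean of 1 FPKM in both conditions were left out and 21 with a pseudocount of 0.1.

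At the limits of the rule, the members with the smallest r were kfl00362_0030 (4.17), kfl01028_0015 (4.18) and kfl00224_0120 (4.19). Just outside were kfl00020_0540, with an r of 3.99 and 38.3 and 45.3 FPKM in high light, against 9.84 and 9.60 FPKM in low light, kfl00468_0120 with an r of 3.98, and kfl00173_0110 with 3.97. The lowest members in high light were kfl00090_0070 at a mean of 5.15 FPKM and kfl00224_0110 at 5.29 FPKM, and the nearest gene below, kfl00514_0025, had a mean of 4.16 FPKM from the unlike values of 7.43 and 0.884. The highest members were kfl00029_0410 at 47.8 FPKM and kfl00756_0040 at 46.8 FPKM, and the nearest genes above the limit were kfl00646_0015 at 50.4 FPKM and kfl00020_0010 at 53.6 FPKM. The gene kfl01813_0890.exon.1, named after its values were seen, was the only one to miss just the order of the high and low light values.

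Position in the genome was not used by the rule. The reference gene table of ASM70883v1 places 54 of the members, and the other 3 are kfl00055_g18, kfl00240_g18 and kfl00310_g12. The 57 members lie on 50 scaffolds, of which 7 hold 2 members each. An immediate neighbour with an r of at least 4 and high light values that do not overlap the low light values was found for 14 of the 54 placed members (25.9%), against 247 of 11317 placed genes above 0 in any library (2.18%). Of these 14 members 8 form 4 pairs of neighbouring members and 6 lie beside an induced gene that is not a member. With an r of at least 2 for the neighbour, and again no overlap of its values, the counts were 21 of 54 (38.9%) and 1277 of 11317 (11.3%). An immediate neighbour that was lower in high light, with an r of at most 0.5 and no overlap of the values, was found for 8 of 54 members (14.8%) and for 25.2% of the placed genes. These shares were not tested.

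The sigma factor-like gene kfl00791_0030 belongs to such a pair of members. It lies at bases 19946 to 24298 of scaffold kfl00791, and kfl00791_0020 lies at bases 12849 to 19305, with 640 bases between them. The gene kfl00791_0020 had 29.7 and 29.8 FPKM in high light, against 8.13 and 4.27 FPKM in low light, with an r of 4.27. The gene after the pair, kfl00791_0040, had an r of 1.43.

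The other pairs of members lie closer together. Only 40 bases separate kfl00608_0060 and kfl00608_0065, 85 bases kfl00224_0110 and kfl00224_0120, and 174 bases kfl01028_0010 and kfl01028_0015. In kfl00608_0060 the values were 12.3 and 17.6 FPKM in high light, against 1.97 and 3.49 FPKM in low light, and in kfl00608_0065 they were 14.6 and 11.4 FPKM in high light, against 0 and 1.47 FPKM in low light. In kfl00224_0110 they were 4.63 and 5.96 FPKM in high light, against 0.0863 and 0.739 FPKM in low light, and in kfl00224_0120 9.12 and 10.2 FPKM in high light, against 3.08 and 0 FPKM in low light. In kfl01028_0015 they were 15.5 and 16.5 FPKM in high light, against 3.81 and 2.32 FPKM in low light. The replicates of neighbouring members did not always order alike, since replicate 2 was the higher high light library in kfl00608_0060 and replicate 1 in kfl00608_0065. Whether a gap this short separates genes or parts of a single transcript was not tested.

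Some members lie beside genes listed at 0 in both low light libraries. The gene kfl00037_0350, between the members kfl00037_0340 and kfl00037_0360, had 2.51 and 2.47 FPKM in high light, against 0 FPKM in both low light libraries. In the same stretch kfl00037_0360 had 15.5 and 23.9 FPKM in high light, against 1.09 and 1.94 FPKM in low light, with an r of 8.23. Next to kfl00033_0240, kfl00033_0230 had 7.48 and 6.68 FPKM in high light, against 0 FPKM in both low light libraries. Next to kfl00009_0410, at a distance of 115 bases, kfl00009_0400 had 24.2 and 27.6 FPKM in high light, again with 0 FPKM in both low light libraries. The last 2 neighbours met every condition of the rule but the one on low light, whereas kfl00037_0350 was also under 5 FPKM in high light, with an r of 3.49.

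On scaffold kfl00052, members alternate with genes that fell outside the rule. The DJ-1-like kfl00052_0190 is followed by kfl00052_0200, with 6.52 and 11.7 FPKM in high light, against 0 FPKM in both low light libraries, and then by 2 genes with an r of 0.718 and 0.829. Next comes the member kfl00052_0240, with 18.5 and 20.0 FPKM in high light, against 2.32 and 0 FPKM in low light. It is followed by kfl00052_0250, with an r of 3.08, and by kfl00052_0260, whose best hit AT3G22840 (ELIP1) is an early light induced protein, a chlorophyll-binding stress protein of the thylakoid. The gene kfl00052_0260 had 568 and 558 FPKM in high light, against 23.6 and 29.3 FPKM in low light.

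The member kfl00036_0180, whose model spans 128 bases, lies among induced genes and others that are not. Its neighbours kfl00036_0170 and kfl00036_0190 had an r of 3.87 and 4.52, and kfl00036_0150 and kfl00036_0210 further out had 2.71 and 4.90. Between these, kfl00036_0160 had an r of 1.70 and kfl00036_0200 was at 0 in all libraries. The receptor kinase-like kfl00001_0820 lies 1168 bases from kfl00001_0810, which had 358 and 373 FPKM in high light, against 23.9 and 24.0 FPKM in low light. By contrast, kfl00097_0070 and kfl00146_0110, which had 2 of the larger ratios, have no immediate neighbour with an r of at least 2.

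**Figure D5:**
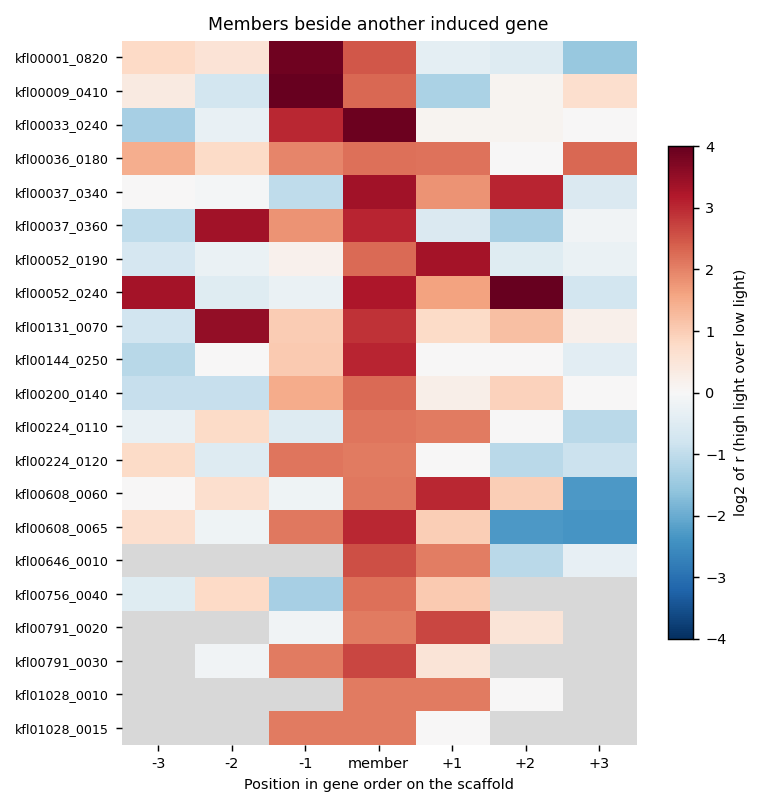
Log2 of r is shown as colour, red for higher and blue for lower in high light. The rows are the 21 placed members with an immediate neighbour of r at least 2 whose high and low light values do not overlap. The member is in the middle column, with up to 3 genes on either side in gene order. Grey cells are beyond the end of a scaffold, and in 16 of the 21 the immediate neighbour is the only gene shown, apart from the member, with an r of at least 2.

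Genes chosen by the same rule but with at least 50 FPKM in high light that the study does not name numbered 78, and genes otherwise alike but at 0 in both low light libraries numbered 19. The median low light mean was 2.73 FPKM in the 57 members and 18.2 FPKM in the 78 more abundant genes, while the median r was 5.50 and 6.16. The limits on r and on high light FPKM cap the low light means of the members but not of the more abundant genes. An immediate neighbour with an r of at least 4 was found for 25.9% of the placed members, 17.9% of the 78 more abundant genes and 17.6% of the 17 placed genes that were at 0 in low light. Among genes with an entry in the supplementary table, an Arabidopsis hit was given for 16 of 28 members (57.1%), 52 of 70 more abundant genes (74.3%) and 8 of 18 genes at 0 in low light (44.4%). Of the placed members 9.26% spanned under 1000 bases, compared with 17.6% of the genes at 0 in low light, 2.56% of the more abundant genes and 3.79% of the 11394 placed genes above 0 in any library. The median span was 4385 bases in the members, 3206 bases in the genes at 0 in low light, 3985 bases in the more abundant genes and 4786 bases in all those placed genes. These comparisons are shares and medians without a test, as the 3 sets were chosen on the same libraries.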

How the data were processed

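RNA-seq of 4 *K. nitens* cultures was used, 2 in high light and 2 in low light, grouped and numbered by sample title. Per the labels and the methods of the study, the authors used FastQC, HISAT2 and StringTie in the pipeline MARACAS (tool versions are not given in the sources used here), and deposited FPKM for 17290 genes per library before any quantile normalization. The labels give about 17000000 reads of 50 nt per library. Depth per gene cannot be read from FPKM, and p-values rest on the spread between 2 cultures.

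The ratio r was computed on the deposited FPKM. For the background, log2(FPKM + 1) was quantile normalized and fitted in limma 3.58.1 (R 4.3.3) with its moderated test, no variance trend and no filter, with Benjamini-Hochberg adjustment over all genes. This step was run on simulated data, in which only genes more abundant in low light than most members were changed. The simulation therefore does not show how the fit performs at the level of most members. Python 3.11.15, numpy 2.4.6, pandas 2.3.3 and matplotlib 3.10.9 served for the other steps. By its locus number each gene was looked up in the gene table of ASM70883v1 and 16199 of 17290 were found, and its first scaffold has the accession that the study gives for its genome. That table gives no strand, exons or products, so pathway lists were not used. No sequence was used here. Best hits were taken from the supplementary table of the study, whose values were not used.

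Named are members with a best hit, the 10 with the largest r and the 10 with the largest r without a hit, genes at the limits of the rule, members at neighbouring loci, and the 5 members whose replicates differ most in each condition, by ratio in high light and by FPKM difference in low light. The members, lists and rules were chosen with earlier results of these data known. Alternatives covered the pseudocount, a filter, the scaling, a replicate block, a variance trend, the omission of single libraries, and the limits of the rule.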

Additional observations from a re-analysis of the deposited data

How the results depend on the processing

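The fold change of all 57 members kept its direction under the 11 alternative fits, at a log2 value of at least 1.75. The rule took only genes with both high light values above both low light values. The direction was thus largely set by the choice of members and is no sign of robustness. Of the 627 values this gives, 382 stayed on their side of the call, 203 lost it and 42 gained it. The 382 include members that were not activated and stayed so. All 203 losses fall on the 33 activated members, for which more values lost the call than kept it. The count of activated genes was 691, and 1212 among the genes with a mean of at least 1 FPKM in a condition, where fewer genes were tested. With 1 library left out it lay between 141 and 180. Activated members numbered 33, against 54 with that filter, 21 with a pseudocount of 0.1 and 4 to 10 with a library left out, fits with fewer degrees of freedom. The replicate block left 0 activated genes and 0 activated members in limma, with 933 genes and 40 members at an unadjusted p below 0.05 and a log2 fold change of 1 or more. Same-numbered libraries deviated with a correlation of -0.187 over 11820 genes, which gives no sign of pairing by number but cannot exclude it. The crossed pairing, chosen after the data were seen, also left 0 activated genes and 0 activated members. By the unadjusted rule it gave 943 genes and 41 members. The cause of the change with the pseudocount was not tested.

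The number of members was 57, and it was 115 with a minimum r of 3 and 34 with a minimum of 5. With equal medians of FPKM it was 68, 55 of them shared with the 57. Settings chosen after the data were seen gave 35 members with all 4 single library ratios at or above 4, and between 50 and 63 members with a library left out. Of the 57 members 39 were still chosen without low light replicate 1, and 39, not all the same genes, without low light replicate 2. The rule also needs a value above 0 in the low light library that remains. For that reason alone it dropped 13 members without replicate 1 and 5 without replicate 2, whatever their ratio. Without high light replicate 1, 56 were still chosen, and 47 without high light replicate 2. A value of 0 in one low light library limits how precisely r is known in 18 members, whose other low light value reached 9.94 FPKM.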
